A study of Mus musculus with 42 samples.

Results

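The livers of WT mice kept on a high fat diet were compared with those of WT mice kept on a lean diet. The comparison covered 14 of the 42 mice of the series, 7 WT obese and 7 WT lean, which were chosen by their labels for genotype, diet and treatment. All 14 were male C57BL/6J mice that carried the wild-type ChemR23 gene. They began their diet at 6 weeks of age and stayed on it for 15 weeks. The lean diet held 10% of its energy as fat and the high fat diet 60%. Both groups received vehicle (ethanol in PBS) by intraperitoneal injection on 4 days, so that lean and obese mice alike were injected animals, and livers were taken on day 5 after at least 4 hours without food. RNA of whole liver was sequenced with 1 library per mouse, which mixes hepatocytes with all other liver cells. Fewer cells of a type and less RNA per cell cannot be told apart in such data. The remaining mice of the series were ChemR23 KO mice or received resolvin E1, and of these only the 14 KO mice given vehicle (7 KO lean and 7 KO obese) are used below, for a side-by-side view of the diet effect.

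The liver takes up fatty acids from the blood, makes new ones from carbohydrate, lengthens and desaturates them, stores them as triglyceride in lipid droplets, oxidises them in mitochondria and peroxisomes and exports them in lipoproteins. Transcription factors read the supply: SREBP-1c and ChREBP raise the genes of lipogenesis after carbohydrate, PPAR alpha raises those of oxidation when fatty acids arrive in fasting, and PPAR gamma, sparse in healthy liver, is known from fatty livers. In rodents the liver also carries a strongly sex-dependent programme of cytochrome P450 and conjugation genes that is set by the rhythm of growth hormone, and a circadian clock that follows feeding.

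Values are normalized counts, in which the reads on a gene are scaled by the size factor of each library, and are comparable between mice for 1 gene but not between genes of different length. Differences are log2 changes, WT obese minus WT lean, on the log2(normalized count + 1) scale, which understates the change of genes with few reads. Each difference was tested with limma across 14012 genes whose mean over the 14 mice was 5 or more. Below, a gene passed at a Benjamini-Hochberg adjusted p under 0.1, and it was called when its fold change was also above 1.5. Reads on listed genes ran from 17136824 to 28689307 in WT lean mice (median 19796716) and from 19973645 to 27274021 in WT obese mice (median 21877841). The labelled tissue held its markers: all 10 hepatocyte genes examined were present, their summed level ran from 1384004 to 1967935 normalized counts in WT lean and from 1147339 to 1908967 in WT obese mice, and 0 of the 10 passed the test in limma, edgeR or DESeq2 (0 at an unadjusted p under 0.05). The 45S ribosomal RNA gene Rn45s took between 4.58% and 18.4% of the reads in WT lean and between 5.13% and 17.7% in WT obese mice, over like ranges in both diets.

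Mice grouped in part by the number that opens their identifier. The first principal component, with 23.2% of the variance, set the mice numbered 6 (obese) and 8 (lean) apart from the others, with obese mouse 27-2R nearest to them, whereas diet followed the second, with 17.8%. What the number stands for is not given in the sources used here. Within a diet group, 9 pairs of mice that share a number had a median correlation of their deviations from the group mean of 0.13 (-0.22 to 0.47), against -0.25 (-0.55 to 0.15) in 33 pairs with different numbers. Deviations from a mean of the same mice lean negative by construction. The pairs numbered 27 stood at -0.15, 0.13 and -0.22, so that number did not group in this measure. The numbers 6, 22 and 27 occurred only in obese and 8, 19, 21 and 26 only in lean mice, so differences between numbers and between diets cannot be told apart. Obese mouse 6R stood apart in genes known to be higher in male liver, with values given beside that list. A fit that kept the number as a random block is therefore given beside the main counts.

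**Figure D1:**
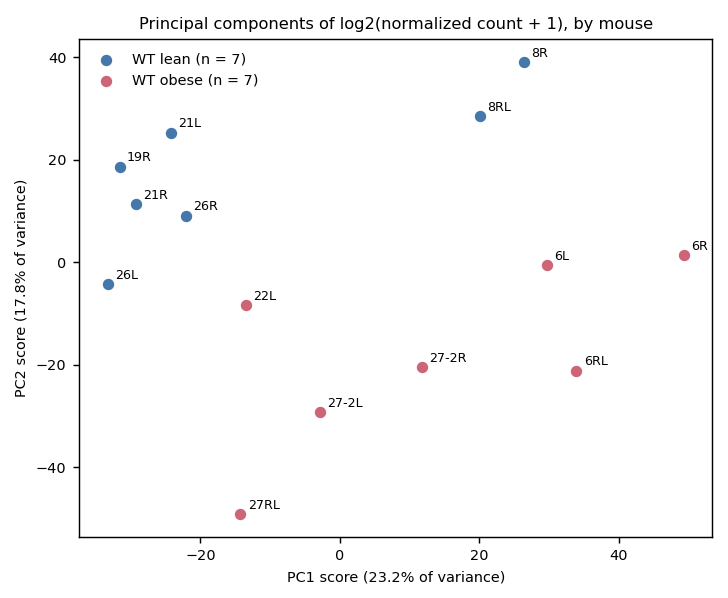
Scores of the 14 WT mice on the first and second principal components of log2(normalized count + 1), with the share of variance of each on its axis and each mouse named by its identifier. WT lean mice (blue) lie higher on the second component than WT obese mice (red), apart from lean mouse 26L, and mice 8RL, 8R, 6L, 6RL and 6R lie to the right on the first.

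Genes of WT liver differed between diets in both directions. Of 14012 genes, 317 were called higher (2.26%) and 215 lower (1.53%) in WT obese mice, 3.8% in all. Changes were mostly of modest size: 233 of the called genes moved by more than 2-fold and 43 by more than 4-fold, 23 of them higher and 20 lower. The 7 obese and 7 lean mice did not overlap in 135 called genes, where 1.36% of all genes tested showed no overlap, 0.799% with the obese mice higher and 0.564% with them lower. The median log2 change over all genes tested was 0.003. At an adjusted p under 0.1 and any fold, the measure used for gene lists below, 512 genes (3.65%) were higher and 366 (2.61%) lower, 6.27% in all. When the identifier number entered as a random block, 242 genes were called (1.73%, and 1.99% passed at any fold), of which 240 were among those called without it.

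Leaving aside the stearoyl-CoA desaturase genes, the Cyp2b genes and Cfd, the strongest rises were in genes of unlike function. Themis, known as a signalling adaptor of developing T cells, ran from 2.39 to 31.4 normalized counts in WT lean mice (median 5.84) and from 43.8 to 1211 in WT obese mice (median 127). All 7 obese mice lay above the highest lean mouse, and obese mice differed among themselves over a wide range. The log2 change was 4.42 (SE 0.62, adjusted p = 0.00139). The gene lies on chromosome 10 of GRCm38, from 28668360 to 28883818, in the GENCODE annotation. Beside it, 0 of the 9 lymphocyte markers tested passed in limma, edgeR or DESeq2 (0 at an unadjusted p under 0.05), and the summed level of the 11 listed ran from 79.1 to 160 normalized counts in lean and from 99.2 to 224 in obese mice, with the T cell receptor subunit Cd3e at 3.48 to 12.8 and 5.15 to 17.8. The highest Themis value, that of obese mouse 6R with 1211, came with a Cd3e value of 5.15. Aatk, which encodes an apoptosis-associated tyrosine kinase, also showed no overlap between diets.

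Myom3, a myomesin of the muscle M-band, had a median of 7.98 normalized counts in lean mice (range 1.22 to 12.8) and 36.3 in obese mice (range 19.2 to 80), again without overlap, a log2 change of 2.32 (SE 0.37, adjusted p = 0.00295). R3hdml, a secreted protein of the CRISP family, rose from a median of 15.8 (range 0.798 to 43.4) to 101 (range 34.6 to 161), with 6 of 7 obese mice above every lean mouse. Klhl31, a kelch-like protein of muscle, ran from 0 to 5.84 in lean and from 1.25 to 44.4 in obese mice, where mouse 22L alone stayed inside the lean range. Obp2a, an odorant binding protein of the lipocalin family, ran from 0.798 to 10.1 and from 3.6 to 74. Derl3, a component of degradation at the endoplasmic reticulum, ran from 3.48 to 155 in lean and from 32.7 to 600 in obese mice, so that only 3 obese mice lay above the highest lean one, lean mouse 19R. Its log2 change was 2.78 (SE 0.75, adjusted p = 0.052), and without obese mouse 27-2L or 27-2R it was no longer called (adjusted p = 0.107 and 0.106).

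The strongest falls included Lepr, the leptin receptor, whose reads here cover its membrane-bound and soluble forms together. Its normalized counts ran from 1472 to 8762 in WT lean mice (median 4314) and from 96.6 to 1804 in WT obese mice (median 164). Of the obese mice 6 lay below every lean mouse, and mouse 22L, with 1804, lay within the lean range. The log2 change was -3.96 (SE 0.57, adjusted p = 0.00149), and the gene lies on chromosome 4 from 101717404 to 101815352. Fabp5, a fatty acid binding protein best known from skin and fat tissue, fell from a median of 608 (range 328 to 1174) to 40 (range 18.7 to 100) without overlap, a log2 change of -3.92 (SE 0.34, adjusted p = 1.76e-05). Chrna4, a subunit of the nicotinic acetylcholine receptor, and Pitx3, a homeobox transcription factor, behaved alike. Chrna4 went from a median of 295 (range 52.2 to 845) to 16.8 (range 9.38 to 29), and Pitx3 from 146 (range 79.8 to 289) to 26.4 (range 7.73 to 54.6). Neither gene showed overlap between the groups.

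Adcy1, an adenylyl cyclase, and Gpr110 (now Adgrf1), an adhesion G protein-coupled receptor, fell in most but not all obese mice. Adcy1 ran from 76.6 to 432 in lean and from 3.22 to 176 in obese mice, a log2 change of -3.29 (SE 0.65, adjusted p = 0.00967). Gpr110 ran from 138 to 716 against 2.58 to 239. In both genes, as in Lepr and Fabp5, the highest obese mouse was 22L. Nr4a3, an orphan nuclear receptor and immediate early gene, rested on few reads. Its lean values ran from 1.06 to 456 with a median of only 8.18, the highest in 19R, and its obese values from 0 to 2.5. The call of Nr4a3 held without 19R but was lost without other mice, such as 21L (limma adjusted p = 0.141). Of the 16 genes with the largest changes, 7 showed no overlap between diets and 11 were also called when the number was a random block. The block took the call from Derl3, Klhl31, Orm3, Gpr110 and Nr4a3 (adjusted p from 0.13 to 0.238).

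**Figure D2:**
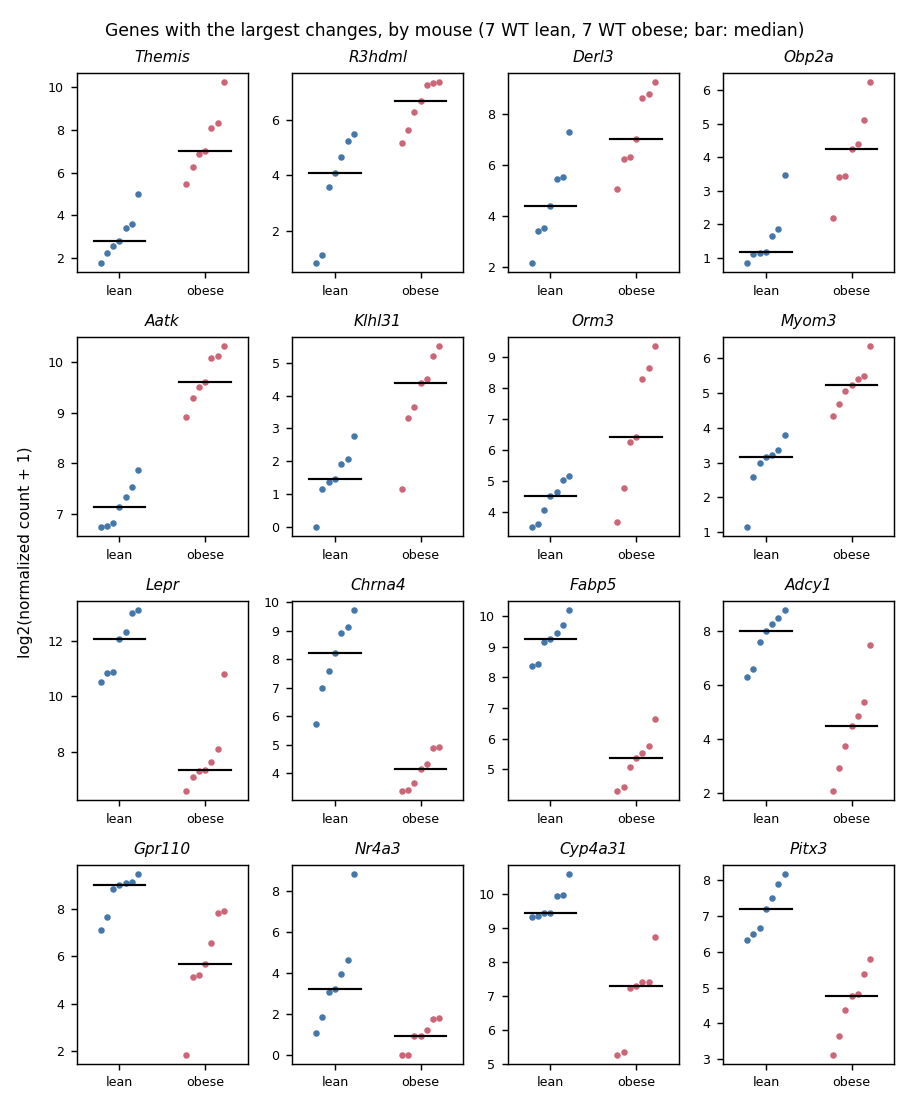
Normalized counts on the log2(normalized count + 1) scale of the 8 rises and the 8 falls of largest log2 change among called genes, with 1 point per mouse (blue for 7 WT lean, red for 7 WT obese) and a bar at each median. Themis, Aatk and Myom3 among the rises and Chrna4, Fabp5, Cyp4a31 and Pitx3 among the falls show no overlap between diets.

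Of the 35 pathway lists, the elongation and desaturation of fatty acids held the largest share of genes that passed. Of 16 genes tested, 7 fell and 0 rose, where 2.61% of all genes fell, and the median log2 change of the list was -0.52. Elovl3, a liver elongase that lengthens saturated and monounsaturated chains, ran from 3956 to 8731 normalized counts in lean (median 7064) and from 1038 to 2563 in obese mice (median 1710). Elovl6, which elongates palmitate to stearate, had medians of 7771 (range 6208 to 18151) and 3051 (range 1843 to 5538). Every obese mouse lay below every lean mouse in both genes, with log2 changes of -1.88 (SE 0.21, adjusted p = 0.000291) and -1.59 (SE 0.28, adjusted p = 0.00503). The elongases of polyunsaturated chains fell by less. Elovl5 changed by -0.99 (SE 0.18) and Elovl2 by -1.08 (SE 0.18) on the log2 scale, and Elovl1, of very long chains, by -0.49 (SE 0.09), all 3 without overlap between diets.

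Among the desaturases of the Fads family, Fads2 changed by -0.80 (SE 0.21, adjusted p = 0.0492) and the less well known Fads3 by -1.12 (SE 0.29, adjusted p = 0.0433), while Fads1, at -0.66 (SE 0.24, adjusted p = 0.143), did not pass. The other enzymes of the elongation cycle, the reductases Hsd17b12 (-0.00) and Tecr (-0.34) and the dehydratases Hacd1 to Hacd4 (-0.18 to 0.15), did not pass. The random block left 5 of the 7 falls, all elongases.

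De novo lipogenesis split between rises and falls. Of 16 genes, 3 rose and 3 fell, where 3.65% and 2.61% of all genes did, with a median log2 change of -0.18. The rises were in regulators. Thrsp (Spot 14), a small nuclear protein induced with lipogenesis, ran from 2507 to 7905 in lean (median 3319) and from 5390 to 43202 in obese mice (median 22691), with 6 of 7 obese mice above the lean range and a log2 change of 2.17 (SE 0.41, adjusted p = 0.00792). Its relative Mid1ip1, which activates acetyl-CoA carboxylase, rose by 0.86 (SE 0.22), and Srebf1, which encodes SREBP-1, by 0.96 (SE 0.27). The falls were in enzymes: Acacb, the acetyl-CoA carboxylase of the mitochondrial surface, at -1.12 (SE 0.30), Acss2, which activates acetate, at -0.97 (SE 0.28) and Me1, the NADPH-making malic enzyme, at -0.66 (SE 0.15). Fasn, the fatty acid synthase, overlapped between diets, with 2994 to 8450 in lean and 2238 to 7120 in obese mice and a log2 change of -0.40 (SE 0.26, adjusted p = 0.445). Acaca, the cytosolic carboxylase, changed by -0.58 (SE 0.19, adjusted p = 0.117) and did not pass. With the random block, Thrsp and Me1 passed and the other 4 did not.

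Of 25 genes of cholesterol synthesis and uptake, 3 fell and 0 rose, where 2.61% and 3.65% of all genes did. The falls were Pmvk, which phosphorylates mevalonate phosphate, at a log2 change of -1.03 (SE 0.25, adjusted p = 0.0323), Tm7sf2, a sterol reductase, at -0.55 and the sterol carrier Stard4 at -0.50. The latter pair passed only narrowly (adjusted p = 0.0975 and 0.0997), and none of the 3 passed with the random block.

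In mitochondrial fatty acid oxidation and ketogenesis 1 of 22 genes passed, Hadh, a dehydrogenase of short and medium chains, at 0.42 (SE 0.12, adjusted p = 0.0628, and 0.236 with the random block), and the median log2 change was 0.01. Cpt1a, the gate of entry into mitochondria, ran from 13351 to 19657 in lean and from 9596 to 16973 in obese mice, a log2 change of -0.40 (SE 0.15, adjusted p = 0.173). Of 25 peroxisomal genes and PPAR alpha targets, 4 fell and 1 rose, where 2.61% and 3.65% of all genes did. Ehhadh, the bifunctional enzyme of peroxisomal oxidation, fell from a median of 19796 (range 10109 to 39016) to 7017 (range 5406 to 8809) with no overlap, a log2 change of -1.48 (SE 0.24, adjusted p = 0.00295). Cyp4a31, a fatty acid omega-hydroxylase, fell from a median of 693 (range 633 to 1537) to 156 (range 37.4 to 420), also without overlap, at -2.76 (SE 0.43, adjusted p = 0.0025).

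The neighbouring Cyp4a10 fell by less, at -1.60 (SE 0.43), and Pdk4, the kinase that shuts pyruvate dehydrogenase in fasting, at -2.10 (SE 0.64, adjusted p = 0.087) with lean mice spread from 129 to 4070. Cyp4a14, with a log2 change of -1.88 (SE 0.65, adjusted p = 0.128), did not pass, nor did Ppara itself at -0.18. The Cyp4a genes are near-identical neighbours on chromosome 4, so reads may be divided among them. The gene that rose was Pparg, whose values ran from 28 to 84.5 in lean (median 57.1) and from 43.2 to 369 in obese mice (median 165). Of the 7 obese mice, 6 lay above the lean range. Its log2 change was 1.62 (SE 0.39, adjusted p = 0.0312). With the random block Ehhadh and Cyp4a31 passed, and the calls of Cyp4a10, Pdk4 and Pparg were lost (adjusted p = 0.123, 0.275 and 0.13).

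Genes of fatty acid uptake and storage split between rises and falls. Cd36, a fatty acid translocase and known PPAR gamma target, ran from 366 to 976 in lean (median 470) and from 636 to 4885 in obese mice (median 1487), with 6 of 7 above the lean range, a log2 change of 1.59 (SE 0.33, adjusted p = 0.014). Vldlr, a lipoprotein receptor, rose by 1.19 (SE 0.30). In the same list of 19 genes, the acyl-CoA synthetases Acsl1 (-0.54) and Acsl5 (-0.60) and the acyl-CoA binding protein Dbi (-0.45) fell along with Fabp5 (of the 6, Cd36 and Fabp5 alone passed with the random block), whereas the abundant liver form Fabp1, at -0.25 (SE 0.24), did not pass. On lipid droplets, 2 of 21 genes rose and 2 fell, where 3.65% and 2.61% of all genes did. Plin2, the main coat protein of droplets in hepatocytes, fell from a median of 15971 (range 11672 to 28166) to 7320 (range 6260 to 12069), a log2 change of -1.02 (SE 0.20, adjusted p = 0.0106), with 6 of 7 obese mice below the lean range. G0s2, an inhibitor of the lipase ATGL, fell by 1.29 on the log2 scale (SE 0.35).

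The droplet genes that rose were Fitm1, a fat-inducing transmembrane protein, and Mogat1, a monoacylglycerol acyltransferase. Fitm1 ran from 114 to 544 in lean and from 569 to 1115 in obese mice without overlap, a log2 change of 1.5 (SE 0.27, adjusted p = 0.00545), and Mogat1, which rests on few reads (1.22 to 27.9 against 7.5 to 137), changed by 2.04 (SE 0.57, adjusted p = 0.0643). Plin2 and Fitm1 passed with the random block, and G0s2 and Mogat1 did not. Cidea and Plin4, droplet proteins best known from fat tissue, had log2 changes of 2.33 (SE 0.92) and 1.46 (SE 0.51) and did not pass (adjusted p = 0.183 and 0.128). Of 12 acyl-CoA thioesterases, cytosolic Acot1 fell by 1.39 (SE 0.26) and Acot11 rose by 1.35 (SE 0.26) on the log2 scale. Of 15 carboxylesterases tested, which hydrolyse esters of drugs and of lipids, 3 rose and 0 fell, where 3.65% and 2.61% of all genes did. Ces1b had no overlap between diets, with 341 to 652 in lean and 915 to 1468 in obese mice and a log2 change of 1.34 (SE 0.16, adjusted p = 0.000303). Ces4a (0.91) and Ces1g (0.76) overlapped and lost the call with the random block.

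**Figure D3:**
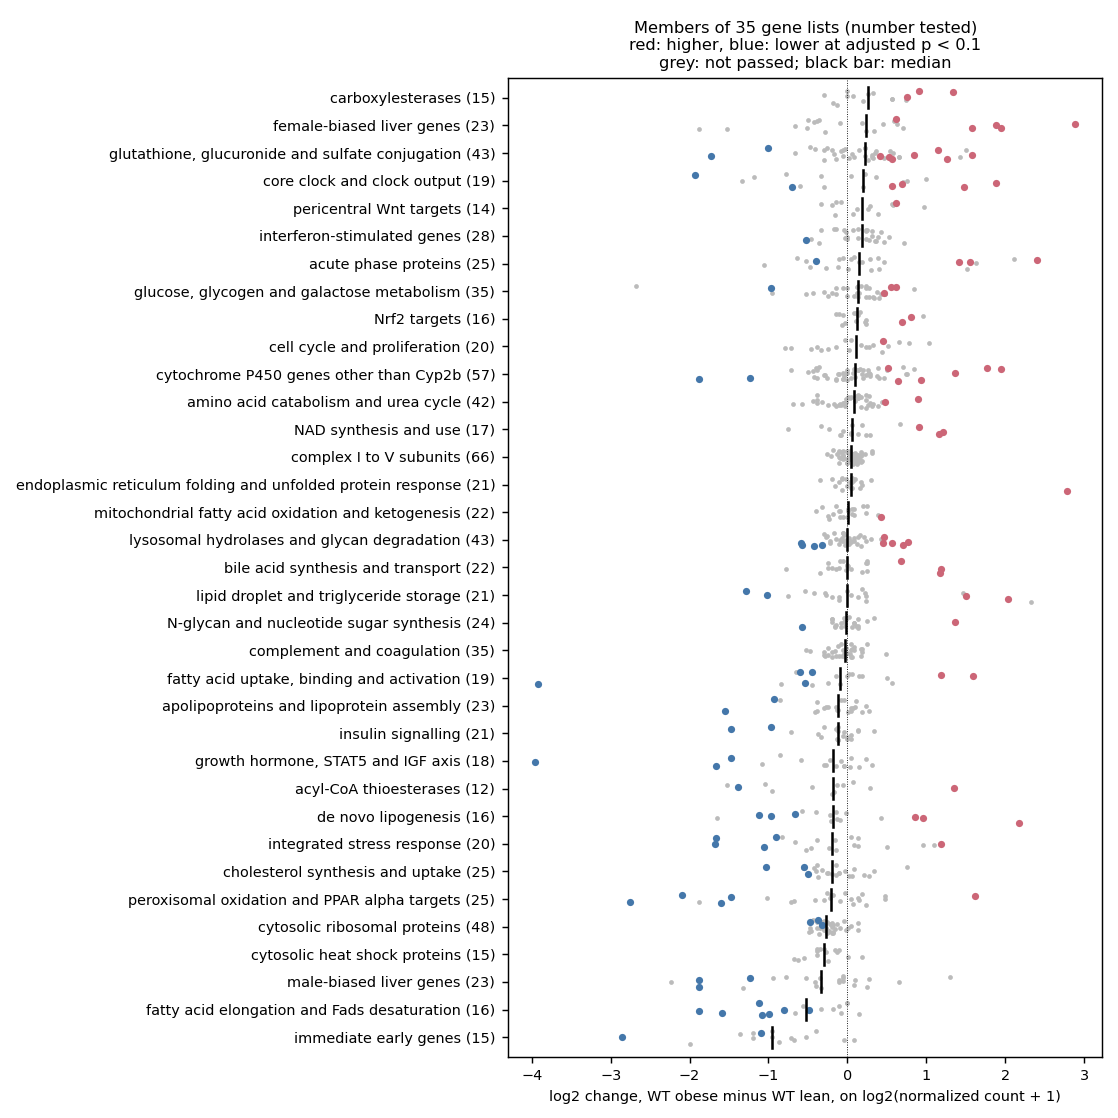
Log2 changes (WT obese minus WT lean) of the members of 35 gene lists, with 1 point per gene, coloured where the gene passed at an adjusted p under 0.1 (red higher, blue lower), and a bar at the median of each list, ordered by that median. The elongation and desaturation list holds 7 falls and 0 rises, and the respiratory chain list of 66 genes holds neither.

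Outside lipid metabolism, cytochrome P450 genes other than Cyp2b held both rises and falls. Of 57 tested, 6 rose and 2 fell, where 3.65% and 2.61% of all genes did, and their median log2 change was 0.10. The largest rises were in Cyp2a4 and Cyp2a5, neighbouring genes on chromosome 7 that encode steroid and coumarin hydroxylases. Cyp2a5 ran from 599 to 5459 normalized counts in lean (median 3802) and from 6313 to 12652 in obese mice (median 7507). Cyp2a4 ran from 9.58 to 83.3 (median 55) and from 107 to 195 (median 136). Neither showed overlap between diets, and lean mouse 8RL was the lowest and 26L the highest lean mouse in both. The log2 changes were 1.77 (SE 0.43, adjusted p = 0.0319) and 1.95 (SE 0.42, adjusted p = 0.0177).

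The promoters of the Cyp2a pair, which rose alike, are shown because they are nearly the same. RefSeq (GRCm38.p6) gives the 300 bases around each start site, 250 before it and 50 from it on, at chr7:26306942-26307241 for Cyp2a4 and chr7:26835089-26835388 for Cyp2a5, both on the plus strand. Aligned with an offset of 1 base, they agree at 294 of 299 positions (98.3%). The genes are near-identical copies as well, so reads may be divided between them. Capitals mark the TATA box letters TATAAA (searched on both strands), which 9.47% of the 10265 tested genes with a promoter in the table hold.
Cyp2a4: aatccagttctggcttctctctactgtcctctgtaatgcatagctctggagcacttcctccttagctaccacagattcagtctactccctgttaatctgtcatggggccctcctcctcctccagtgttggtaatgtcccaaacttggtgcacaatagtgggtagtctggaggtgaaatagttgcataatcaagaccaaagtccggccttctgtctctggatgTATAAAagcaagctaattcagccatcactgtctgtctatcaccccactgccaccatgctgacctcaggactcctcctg
Cyp2a5: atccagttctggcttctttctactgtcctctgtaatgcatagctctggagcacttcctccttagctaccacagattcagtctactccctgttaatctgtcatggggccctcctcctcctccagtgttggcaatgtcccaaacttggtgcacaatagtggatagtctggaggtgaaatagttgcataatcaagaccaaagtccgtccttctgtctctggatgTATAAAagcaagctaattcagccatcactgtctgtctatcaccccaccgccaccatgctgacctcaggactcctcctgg

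Cyp2a22 (1.36, SE 0.37), Cyp2c37 (0.93, SE 0.27), Cyp2c50 and Cyp2a12 were the other P450 genes that rose. The falls were in Cyp4a12a and Cyp4a12b, androgen-dependent arachidonic acid hydroxylases of male liver and kidney. Cyp4a12b fell from a median of 1492 (range 1272 to 2299) to 543 (range 168 to 687) without overlap, a log2 change of -1.88 (SE 0.27, adjusted p = 0.00166), and Cyp4a12a changed by -1.24 (SE 0.22, adjusted p = 0.00545). With the random block Cyp2a4, Cyp2a5 and both Cyp4a12 genes passed.

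Some of the genes known to differ between the sexes in liver passed in these male mice. Of 23 female-biased genes tested, 5 rose and 0 fell (median log2 change 0.23), where 3.65% of all genes rose. Of 23 male-biased genes 3 fell and 0 rose (median -0.34), where 2.61% of all genes fell. Hao2, a peroxisomal hydroxyacid oxidase, was at or near 0 in lean mice, with 0 to 1.24 normalized counts, and ran from 2.5 to 54.1 in obese mice (median 7.96), all 7 above the lean range. The other rises were in Cyp2a4, the organic anion transporter Slc22a27 (1.88, SE 0.55), the estrogen sulfotransferase Sult1e1 (1.58, SE 0.45) and the ectonucleotidase Nt5e (0.61, SE 0.16). The male-biased falls were Elovl3 and the Cyp4a12 pair, so that the male-biased list shares its moving members with the elongation and P450 lists. With the random block Cyp2a4 and the 3 male-biased genes passed, as did Hao2, which entered the test through the obese mice alone.

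Obese mouse 6R was far from the other obese mice in part of both lists. It held 15.5 normalized counts of the steroid dehydrogenase Hsd3b5, 1887 of the major urinary protein gene Mup7 and 1197 of the organic anion transporter Slco1a1, where the next lowest obese mice held 2170, 39493 and 11614. These 3 male-biased genes did not pass (log2 changes of -1.32, -0.11 and -0.78, SE 1.05, 0.77 and 0.51). In the female-biased list 6R was the highest in Hao2 (54.1, next 13.2) and in Slc22a27 (273, next 58.1). Without this mouse 3 female-biased genes rose (Cyp2a4, Sult1e1 and Nt5e) and 1 fell (Cyp4a14), Slc22a27 no longer passed and Hao2 fell below the filter on low counts, while 3 male-biased genes still fell.

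Socs2, a feedback inhibitor of growth hormone signalling and a STAT5 target, ran from 445 to 2978 in lean (median 2404) and from 332 to 1077 in obese mice (median 506). The groups overlapped, since lean mice 26R and 8RL, with 445 and 891, lay inside the obese range, and the log2 change was -1.67 (SE 0.38, adjusted p = 0.024). Igf1, the main growth hormone target of the liver, ran from 20693 to 29848 and from 16878 to 34019, with a log2 change of -0.08 (SE 0.15, adjusted p = 0.817). Igfbp1, an insulin-repressed binding protein, fell by 1.47 (SE 0.47, adjusted p = 0.0997) and lost its call with the random block. Of 18 genes of this axis, 3 fell (Lepr, Socs2 and Igfbp1) and 0 rose, where 2.61% and 3.65% of all genes did.

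Conjugation enzymes, which attach sulfate, glucuronide or glutathione to steroids, bile acids and foreign compounds, rose in 7 and fell in 2 of 43 genes tested (median log2 change 0.22), where 3.65% and 2.61% of all genes did. Sult1b1, a sulfotransferase of thyroid hormone, ran from 287 to 494 in lean and from 615 to 1810 in obese mice, a log2 change of 1.26 (SE 0.19, adjusted p = 0.00202). Ugt3a1 changed by 0.84 (SE 0.14, adjusted p = 0.0036). Both showed no overlap between diets. Against them Ugt1a5 (-1.73, SE 0.29) and Ugt1a9 (-1.01, SE 0.24) fell. Both falls and 3 of the 7 rises passed with the random block (Sult1b1, Ugt3a1 and Gstk1), while Gstt3, Gstz1, Sult5a1 and Sult1e1 did not (adjusted p from 0.14 to 0.288). The Ugt1a genes share their last exons, so reads there cannot be assigned to 1 of them.

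Of 22 genes of bile acid synthesis and transport, 3 rose and 0 fell, where 3.65% and 2.61% of all genes did. Abcc3, an export pump of the basolateral membrane, ran from 891 to 1859 in lean (median 1306) and from 1422 to 4862 in obese mice (median 3022), a log2 change of 1.19 (SE 0.22, adjusted p = 0.00594). Cyp7a1, the rate-limiting enzyme of bile acid synthesis, rose by 1.17 (SE 0.36, adjusted p = 0.0895) with broad overlap (1219 to 6721 against 2775 to 13559), and Akr1d1, a steroid reductase of the same pathway, by 0.68 (SE 0.20, adjusted p = 0.0734). Abcb11, the bile salt export pump, did not pass (-0.35, SE 0.16). Abcc3 alone passed with the random block.

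Among 21 genes of insulin signalling 2 fell and 0 rose, where 2.61% of all genes fell. The falls were in both insulin receptor substrates, the proteins that carry the signal from the receptor to PI3 kinase. Irs1 ran from 967 to 2428 in lean (median 1274) and from 620 to 972 in obese mice (median 670). Irs2 ran from 609 to 4454 (median 1098) and from 262 to 745 (median 466), and lean mouse 19R held the highest value of both genes. In each gene 6 of 7 obese mice lay below the lean range, and the log2 changes were -0.97 (SE 0.18, adjusted p = 0.00717) and -1.48 (SE 0.35, adjusted p = 0.0279). Both passed with the random block. The receptor Insr, with a log2 change of -0.12 (SE 0.10), and the other 18 genes did not pass. In glucose, glycogen and galactose metabolism 3 of 35 genes rose, where 3.65% of all genes did. They were the transporters Slc2a2 (0.47) and Slc37a4 (0.55) and the triokinase Tkfc of fructose breakdown (listed as Dak, 0.62). With the random block 1 gene of the list rose. Another member of the list is not reported here. The gluconeogenic genes Pck1 (-0.52, SE 0.25) and G6pc (-0.44, SE 0.26) did not pass.

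Fgf21, a hormone that liver secretes in fasting and under amino acid stress, was below the lean range in every obese mouse. It ran from 213 to 1002 normalized counts in lean (median 338) and from 84 to 197 in obese mice (median 111), a log2 change of -1.68 (SE 0.33, adjusted p = 0.0102). The highest lean values belonged to mice 8RL and 8R, with 1002 and 854. Within the 20 genes of the integrated stress response, 4 fell and 1, Vldlr, rose, where 2.61% and 3.65% of all genes did. Besides Fgf21 the falls were in the transcription factors Atf5 (-0.90, SE 0.23) and Atf3 (-1.67, SE 0.47) and the folate enzyme Aldh1l2 (-1.06, SE 0.27), while Atf4, the factor that drives the response, stood at -0.23 (SE 0.16, adjusted p = 0.468). Fgf21 and Atf5 passed with the random block, and Atf3, Aldh1l2 and Vldlr did not.

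The Fgf21 promoter is shown because it carries the element through which ATF4 is known to act on the gene. Its 300 bases, at chr7:45615441-45615740 on the minus strand, hold the amino acid response element TGATGNAAT, read here on the other strand as ATTGCATCA from position -140, an E-box (CACGTG) at -50 and the TATA box at -28, all in capitals and counted from the start site. The first motif was found in 0.594% of the promoters of tested genes.
Fgf21: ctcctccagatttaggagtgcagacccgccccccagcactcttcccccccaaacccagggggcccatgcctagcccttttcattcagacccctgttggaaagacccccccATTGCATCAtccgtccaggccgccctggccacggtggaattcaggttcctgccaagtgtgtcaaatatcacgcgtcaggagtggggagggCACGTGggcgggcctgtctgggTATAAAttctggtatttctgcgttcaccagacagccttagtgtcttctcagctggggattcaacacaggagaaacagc

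Of 19 genes of the circadian clock 4 rose and 2 fell, where 3.65% and 2.61% of all genes did. Per3, a period gene, ran from 213 to 649 in lean (median 437) and from 717 to 1667 in obese mice (median 1083), and Clock, a partner of BMAL1 in driving the period genes, from 1472 to 2897 (median 1982) and from 1024 to 1472 (median 1227). In neither gene did the groups overlap, though lean mouse 26L and obese mouse 27-2R met within 1 normalized count in Clock, and the log2 changes were 1.48 (SE 0.24, adjusted p = 0.00284) and -0.70 (SE 0.15, adjusted p = 0.0146). Npas2, which can stand in for Clock, fell as well (-1.93, SE 0.55), with lean mice 8RL and 8R at 37.5 and 39.4 and the other lean mice at or below 11, and the rises took in the output factors Tef (0.69, SE 0.18) and Hlf (0.56, SE 0.17) and the repressor Ciart (listed as Gm129, 1.88, SE 0.55). Arntl, which encodes BMAL1, was at -1.33 (SE 0.44, adjusted p = 0.109) and did not pass. Per3 and Clock passed with the random block, the other 4 did not.

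Clock genes also differed between mice of 1 diet by identifier number. Nr1d1, a repressor that swings widely over the day, stood at 618 normalized counts in lean mouse 19R, 515 in 21L and 407 in 21R, but at 2297 and 3682 in 26L and 26R and at 2722 and 2982 in 8RL and 8R. In obese mice it ran from 548 to 1356, inside the lean range, and its log2 change of -0.78 (SE 0.47) did not pass. The part of this grouping in the clock genes' differences between diets was not tested.

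Per3 and Tef are shown as examples of clock-driven promoters, since the D-box (TTATGTAA) is bound by TEF, HLF and DBP and the E-box by CLOCK and its partners. The Per3 promoter, at chr4:151044616-151044915 on the minus strand, holds the D-box at positions -205 and -158. The Tef promoter, at chr15:81802423-81802722 on the plus strand, holds an E-box at -127. It is 1 of 2 given for Tef and was picked by its number of matches to the motifs searched. The presence of its E-box follows in part from that choice. The D-box was found in 7 of 234 genes called higher with a promoter in the table (2.99%), Ces1b, Ces1g, Map2k6, Per3, Prnp, Slc16a12 and Wnt5b, in 0 of 150 called lower and in 0.789% of all tested ones. The E-box was found in 15.4% of genes called higher, 13.3% of those called lower and 11.4% of all. Both strands were searched, and a match describes the letters alone.
Per3: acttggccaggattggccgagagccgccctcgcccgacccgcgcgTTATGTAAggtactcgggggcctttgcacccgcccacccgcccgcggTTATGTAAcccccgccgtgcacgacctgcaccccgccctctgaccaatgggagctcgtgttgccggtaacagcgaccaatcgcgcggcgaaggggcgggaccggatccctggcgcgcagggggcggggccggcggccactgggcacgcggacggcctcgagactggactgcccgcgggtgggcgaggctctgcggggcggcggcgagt
Tef: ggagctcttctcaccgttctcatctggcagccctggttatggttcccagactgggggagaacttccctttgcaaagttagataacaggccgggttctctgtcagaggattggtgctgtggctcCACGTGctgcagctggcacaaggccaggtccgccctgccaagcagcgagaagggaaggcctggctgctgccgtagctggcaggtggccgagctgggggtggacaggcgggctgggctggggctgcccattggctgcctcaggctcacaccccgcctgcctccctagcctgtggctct

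Immediate early genes, which respond within minutes to hormones and handling, had the lowest median of any list, -0.95, but only Nr4a3 and Btg2 of 15 passed. Btg2, an antiproliferative gene, changed by -1.09 (SE 0.31, adjusted p = 0.0646). Egr1 ran from 411 to 10112 in lean and from 706 to 3530 in obese mice, so that the obese range lay inside the lean one, and Fos changed by -0.95 (SE 0.53, adjusted p = 0.369). Neither passed, and with the random block 0 of the 15 did.

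**Figure D4:**
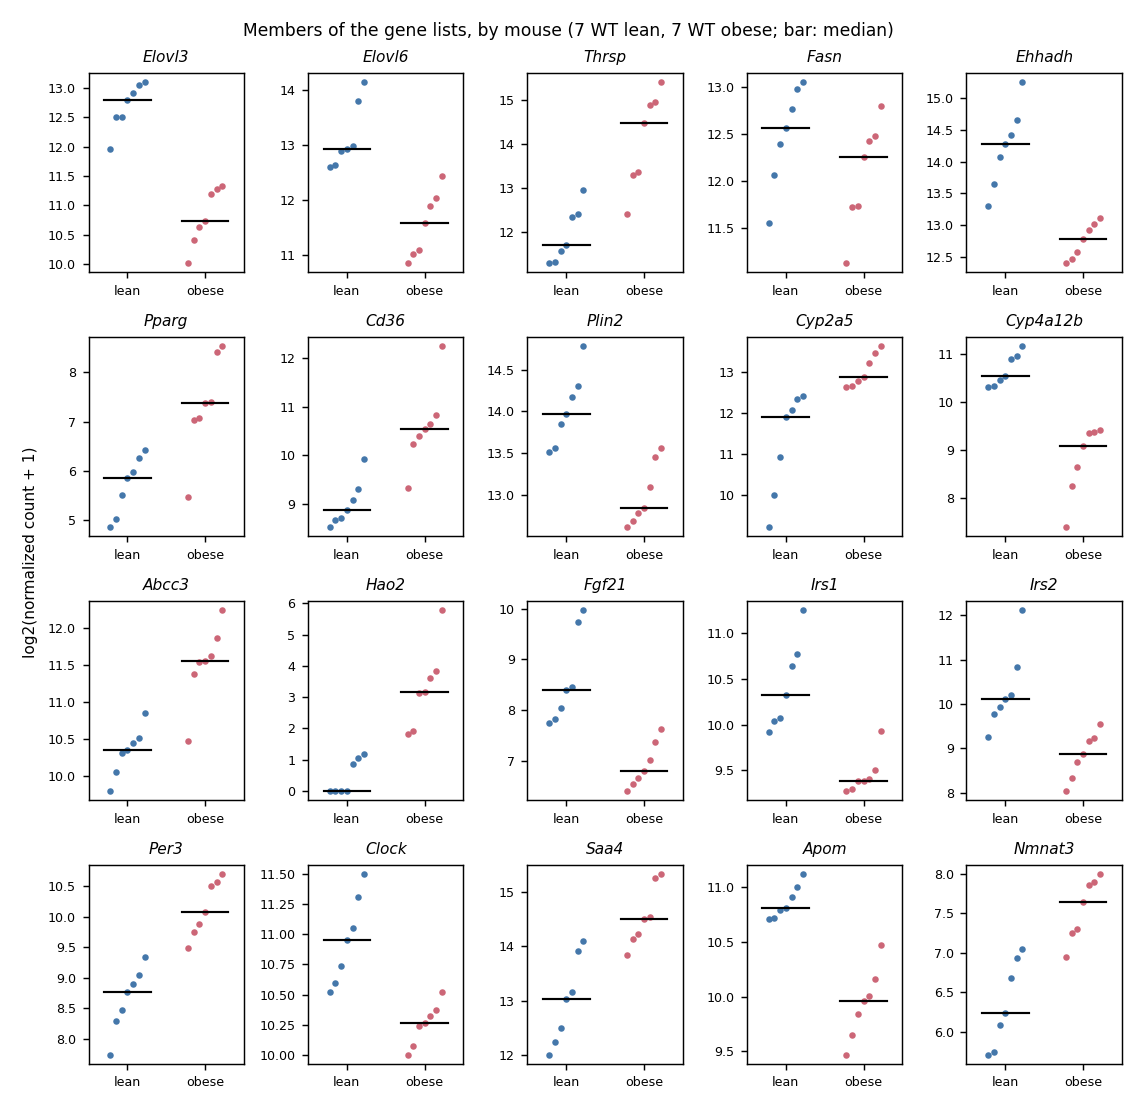
Normalized counts on the log2(normalized count + 1) scale of 20 members of the gene lists, with 1 point per mouse (blue for 7 WT lean, red for 7 WT obese) and a bar at each median. Elovl3, Elovl6, Ehhadh, Cyp4a12b, Fgf21, Clock and Apom fell and Cyp2a5 and Per3 rose without overlap, while Fasn overlaps. Hao2 met the filter on low counts only through the obese mice.

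Acute phase genes rose in 3 of 25 and fell in 1, where 3.65% and 2.61% of all genes did. Saa4, the constitutive serum amyloid A of high density lipoprotein, ran from 4121 to 17541 in lean (median 8407) and from 14637 to 40944 in obese mice (median 23130), a log2 change of 1.55 (SE 0.32, adjusted p = 0.0151). Saa3, an inducible serum amyloid A, ran from 15.7 to 43 in lean and from 46.9 to 144 in obese mice with no overlap (log2 change 1.41, SE 0.26, adjusted p = 0.0062). Orm3, an orosomucoid, was high in only some obese mice (10.6 to 34.8 against 12 to 649), and its call held in 3 of 14 fits that each left out 1 mouse, those without 26L, 27RL or 6L. The inducible Saa1 was likewise scattered, with obese values from 1281 to 73081, and did not pass (log2 change 1.52, SE 0.92, adjusted p = 0.405). Crp fell slightly (-0.40, SE 0.12) and did not pass with the random block or without obese mouse 6R. Of 35 complement and coagulation genes 0 passed in limma and edgeR and 1 in DESeq2 (3 at an unadjusted p under 0.05).

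Of 23 apolipoprotein and lipoprotein genes 2 fell and 0 rose, where 2.61% and 3.65% of all genes did. Apom, the carrier of sphingosine 1-phosphate in high density lipoprotein, fell from a median of 1791 (range 1675 to 2220) to 993 (range 708 to 1414) with no overlap, a log2 change of -0.93 (SE 0.13, adjusted p = 0.00153). Pltp, the phospholipid transfer protein, changed by -1.55 (SE 0.33, adjusted p = 0.0171). Both passed with the random block. Of 17 genes of NAD synthesis and use 3 rose and 0 fell, where 3.65% and 2.61% of all genes did, and all 3 passed with the block. Nmnat3, the mitochondrial adenylyltransferase, changed by 1.21 (SE 0.23), Nmrk1, the nicotinamide riboside kinase, by 0.91 (SE 0.16) and Aox1, an aldehyde oxidase that also oxidises nicotinamide products, by 1.16 (SE 0.19). Nmrk1 and Aox1 showed no overlap between diets.

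Pmm1, a phosphomannomutase of mannose activation, ran from 22.3 to 38.6 in lean and from 64.7 to 106 in obese mice, a log2 change of 1.37 (SE 0.15, adjusted p = 0.000212), whereas the sialyltransferase St6gal1 fell (-0.57) and the other 22 genes of N-glycan synthesis did not pass. St6gal1 did not pass with the random block. Of 43 lysosomal genes 5 rose and 4 fell, where 3.65% and 2.61% of all genes did. The rises included glycosidases (Hexa 0.45, Idua 0.47, Neu2 0.77 and Engase 0.71, the last of which acts in the cytosol), and the falls in the ganglioside activator Gm2a (-0.59), the acid lipase Lipa (-0.58), the acid glucosidase Gaa (-0.42) and the cholesterol carrier Npc2 (-0.32). With the block Engase and Gm2a passed, and without obese mouse 6R 2 of these genes rose and 2 fell. Of 16 Nrf2 targets 2 rose, Nqo1 (0.81, SE 0.21) and the epoxide hydrolase Ephx1 (0.69, SE 0.12). Of 42 genes of amino acid catabolism 2 rose, the proline dehydrogenases Prodh (0.89, SE 0.20) and Prodh2 (0.48, SE 0.11). Over all genes tested 3.65% rose. Lect2 (0.61) was the only riser of 14 pericentral Wnt targets. Ephx1 and the proline dehydrogenases passed with the random block, and Nqo1 and Lect2 did not (adjusted p = 0.134 and 0.215).

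In the 66 subunits of respiratory complexes I to V, 0 passed in limma, edgeR or DESeq2 (2 at an unadjusted p under 0.05), and the median log2 change was 0.05. Among 15 cytosolic heat shock genes 0 passed in any of these tools (2 at an unadjusted p under 0.05), with a median of -0.29. Of 48 ribosomal protein genes 3 passed, all lower (Rpl3, Rpl8 and Rpl28), with a median of -0.27, and 0 passed at equal read totals or with the random block (adjusted p from 0.18 to 0.315). Of 21 genes of folding in the endoplasmic reticulum only Derl3 passed, of 20 cell cycle genes Mcm3 (higher) and of 28 interferon-stimulated genes Bst2 (lower). Bst2 passed with the random block, and Derl3 and Mcm3 did not (adjusted p = 0.142 and 0.298).

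Few markers of other liver cells passed. Of 11 Kupffer cell genes 0 passed in limma, edgeR or DESeq2 (0 at an unadjusted p under 0.05), and their summed level ran from 4555 to 9440 normalized counts in lean and from 5491 to 8449 in obese mice. In the stellate cell and fibroblast list 0 of 16 passed in any of these tools (1 at an unadjusted p under 0.05, sums 8381 to 12721 against 7423 to 11173), and in limma 0 of 4 neutrophil, 0 of 5 cholangiocyte, 0 of 3 erythroid and 0 of 2 acinar genes did, with 0 at an unadjusted p under 0.05 and 1 cholangiocyte gene in DESeq2. The 13 markers of monocyte-derived and lipid-associated macrophages held 1 that fell, Cd9, from a median of 235 (range 160 to 403) to 88.2 (range 58.1 to 121), a log2 change of -1.47 (SE 0.22, adjusted p = 0.00189). Cd9 is a tetraspanin of many cell types, and Trem2 and Gpnmb in the same list did not pass. Of 10 sinusoidal endothelial genes Dnase1l3 fell in limma (-0.74, SE 0.17, adjusted p = 0.0287, and 0.121 with the random block), 2 passed in DESeq2 and 4 had an unadjusted p under 0.05. The list had a summed level of 3883 to 6441 in lean and 3064 to 5200 in obese mice. Of the adipocyte list Adipoq, Lep, Retn and Plin1 are not among the genes in the table, and 0 of the 4 tested (Car3, Cidec, Fabp4 and Pnpla3) passed in limma, 1 in edgeR and in DESeq2 (2 at an unadjusted p under 0.05). Their summed level ran from 7174 to 57781 in lean and from 32134 to 70742 in obese mice. Most of this sum was Car3, since no mouse exceeded 238 normalized counts for Fabp4, 1548 for Cidec or 185 for Pnpla3. With Adipoq, Lep, Retn and Plin1 absent, the sum is not a measure of fat cells.

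The same diet was given to ChemR23 KO mice, which are other animals with lean controls of their own. Of 526 genes called in WT mice and tested in KO mice, 486 (92.4%) had a log2 change of the same sign in KO mice, where 58.5% of all 13924 genes did, and 48.3% were called there too, where 10.4% of all genes were (4.97% higher and 5.42% lower). At any fold 24.1% of all genes passed in KO mice, 12% higher and 12.1% lower. The genes called higher in WT had a median log2 change of 0.62 in KO mice and those called lower -0.65. In KO mice Themis changed by 3.80, Fabp5 by -3.15, Lepr by -3.01, Elovl3 by -1.71, Ehhadh by -1.81 and Fgf21 by -1.39 on the log2 scale, and all 6 passed. In the elongation and desaturation list 7 of 16 genes fell there and 0 rose, beside the 12.1% of all genes that fell.

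The diet effect differed between genotypes, by a test of the difference itself, in 1 gene of 13924 (0.00718%). Vwa1, an extracellular matrix protein also known as WARP, ran from 10.5 to 16 normalized counts in WT lean and from 23 to 60 in WT obese mice without overlap, a log2 change of 1.47 (SE 0.22), against -0.19 (SE 0.21) in KO mice, a KO minus WT difference of -1.65 (SE 0.30, adjusted p = 0.0803). The difference did not pass with the identifier number as random block (adjusted p = 0.603), with a pseudocount of 4 (0.101) or in 16 of 28 fits without 1 mouse (0.0114 to 0.21 over all 28). The following WT changes stood apart from those in KO mice by their values but did not pass this test. Irs2 had a log2 change of 0.04 in KO mice (difference 1.52, adjusted p = 0.141), Irs1 of -0.30 (difference 0.67, adjusted p = 0.149) and Atf3 of 1.01 (difference 2.69, adjusted p = 0.141). Before adjustment, 2553 genes had a p under 0.05. The count at an adjusted p under 0.1 rose to 966 without WT obese mouse 22L and to 1847 without KO lean mouse 20R, and was between 0 and 20 without each of the other 26 mice.

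**Figure D5:**
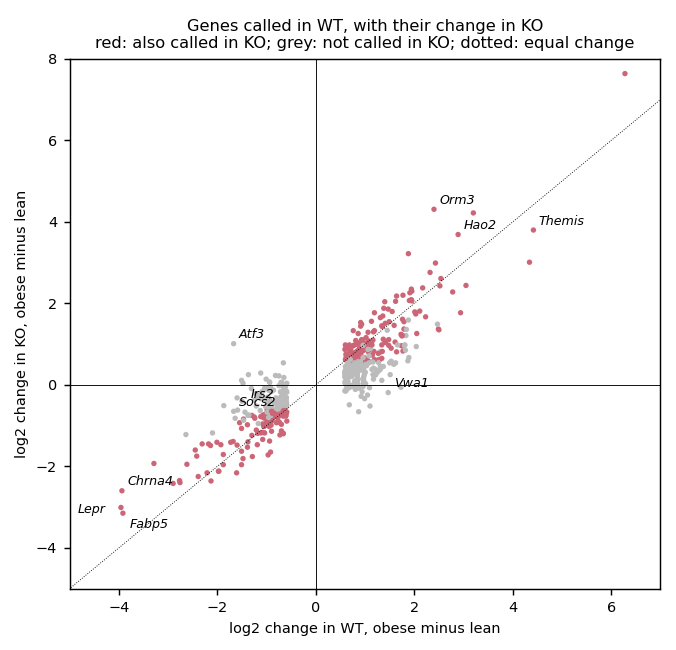
Log2 changes with diet (obese minus lean) in WT mice (x axis) and KO mice (y axis) for the 526 genes called in WT mice and tested in both, red where the gene was also called in KO mice and grey where it was not, with a dotted line of equal change. Most genes lie in the quadrants of equal sign (486 of 526), while Atf3 and Vwa1 do not.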

How the data were processed

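Livers were sequenced as stranded total RNA libraries, although the labels name polyA RNA. Per the labels and the study's methods, the authors mapped reads to mm10 with Bowtie2, counted them per gene with featureCounts and normalized the counts with DESeq2. The deposited table holds these normalized counts (a signal, counts divided by size factors) for the 14 mice, beside columns with the authors' own log2 fold changes and p-values, which were not used. Gene identity is by symbol, and 13936 tested names matched RefSeq. Date-like names left by a spreadsheet (22) were kept in the fit and not named. A few list members are not reported here.

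Genes with a mean of at least 5 were compared on the log2(normalized count + 1) scale in limma 3.58.1 (R 4.3.3, trend, two-sided) and Benjamini-Hochberg adjustment over 14012 genes. Whole reads were recovered from the steps of the values (100% whole within 0.1 reads), on which edgeR 4.0.16 called 562 and DESeq2 1.42.0 called 730 genes. KO mice were fitted within their own table, and the KO minus WT difference over 28 mice. The replicates are separate mice, and no 2 libraries of a group agreed within sampling noise (chi-square per gene at least 40.2).

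Members and gene lists were chosen with earlier results of these data known. Genes are named by rule: the 8 rises and 8 falls of largest log2 change among called genes (mean of at least 20 where higher, without Scd, Cyp2b, Cfd and unnamed gene models), up to 2 called members per list and direction with the smallest adjusted p, and members with the list's textbook function. The fits were first tested on simulated data. Alternatives were other pseudocounts, filters, scalings and thresholds, edgeR, DESeq2, library weights, the identifier number as a block and leaving out mice.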

Additional observations from a re-analysis of the deposited data

Results flagged for a closer look

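In 14 of 308 combinations of a gene and a diet group, 1 of the 7 mice stood apart, the gap to its nearest neighbour being above Dixon's 95% critical value for 7 mice. Chance alone gives about 1 in 20 such cases, so their number is no result. Lean mouse 19R was the low one in Cpt1a (13351 normalized counts, next 17617), Egr1 (411, next 3383), Sult5a1 (15.8, next 46.3) and Slc28a1 (0, next 4.35). Obese mouse 22L was high in Lepr (1804, next 278) and low in G0s2 (1403, next 4365). Obese mouse 6R was high in Nqo1 (220, next 118) and Slc22a29 (108, next 37.4) and low in Hsd3b5 (15.5, next 2170), Mup7 (1887, next 39493) and Slco1a1 (1197, next 11614), the last 3 having been added for their values in this mouse. The rest were Obp2a in lean mouse 26L (10.1, next 2.61), Irs1 in obese mouse 27-2L (972, next 726) and Car9 in obese mouse 6L (77.9, next 9.66).

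The diet effect on Vwa1 differed between genotypes by a test of the difference itself, with a KO minus WT log2 difference of -1.65 (limma adjusted p = 0.0803). It did not pass with the identifier number as random block (adjusted p = 0.603), with a pseudocount of 4 (0.101) or in 16 of 28 fits without 1 mouse, where the difference ran from -1.76 to -1.54.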

How the results depend on the processing

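No paired analysis was possible because identifier numbers are not shared between WT lean and WT obese mice. A random block for the number left 242 called genes in place of 532, and the correlation within a number was estimated at 0.263. Without single mice the count ran from 372 (without obese mouse 6RL) to 733 (without obese mouse 22L). Without all mice of 1 number it was 351 for number 6, 786 for number 8 and 267 for number 27, and without numbers 6 and 8 together 341. At an adjusted p under 0.05 it was 348, with no fold threshold 878, and above a log2 change of 1.5 it was 105. Fasn changed sign, to 0.01 without number 6 and 0.13 without numbers 6 and 8, and so did Igf1, to 0.13 and 0.06. Mup7, at -0.11 and far from passing, turned to 0.32 in edgeR and DESeq2, 0.17 with the covariate for numbers 6 and 8, 0.57 without those numbers, 0.96 without number 6, 0.03 without number 19 and 0.20 without number 26, and without single mice it ran from -0.42 to 0.66 (without obese mouse 6R). The count of genes whose diet effect differed between genotypes was 0 with a pseudocount of 4 (2557 at an unadjusted p under 0.05) and 0 with the random block (1107), against 1 in limma and in edgeR, and without single mice it ran from 0 to 1847. The settings that use the identifier numbers 6 and 8 were chosen after seeing the data, and the causes of these shifts were not tested.

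TMM scaling, pseudocounts of 4 or 0.5, dropping the filter on low counts, equal read totals, edgeR, DESeq2 and library quality weights gave between 402 and 768 called genes, and numbers 6 and 8 as a covariate 735. The 402 came with equal read totals, as 278 higher and 124 lower, against 317 and 215 in the main fit. The number of falls thus depended on the scaling. At equal read totals the falls of the elongation list went from 7 to 6, those of PPAR alpha targets from 4 to 2 and the lysosomal falls from 4 to 1. Of the 75 genes named by rule, 57 were called in all 14 fits without 1 mouse, 51 with the random block and 74 with the covariate, and 0 changed sign in any alternative. Acacb lost its call without 6RL (adjusted p = 0.112), Cyp4a10 without 27-2R (0.11), Sult5a1 without 27-2L or 6RL (0.11 and 0.112), Cyp2a22 without 19R, 21R or 6RL (0.109 to 0.118), Me1 without 21L or 27RL and Tef without 8RL or 8R (log2 changes of -0.58, -0.58, 0.57 and 0.58, below the fold threshold). Nr4a3, Srebf1, Acss2, Pdk4, Acsl5, Mogat1, Ces4a, Ces1g, Cyp2c37, Cyp7a1, Akr1d1, Sult1e1, Slc22a27, Nt5e, Igfbp1, Atf3, Tkfc, Npas2, Ciart, Btg2, Neu2, Gm2a, Lect2, Id3, Car7, Car9, Car14 and Slc28a1 each lost it without any of at least 4 mice.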

Other observations

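Genes outside the lists were also grouped by the stem of their symbols, after their values were seen, so these groups are descriptions only. Of 4 Id genes tested 3 were called lower, where 1.53% of all genes were. Id genes encode inhibitors of basic helix-loop-helix factors and are known targets of BMP and SMAD signalling. Id1 ran from 246 to 842 normalized counts in WT lean mice (median 447) and from 95.3 to 384 in WT obese mice (median 176), a log2 change of -1.30 (SE 0.31, limma adjusted p = 0.0287). Id2 and Id3 changed by -0.94 (SE 0.22) and -0.94 (SE 0.29) on the log2 scale. In KO mice the changes were -0.75 for Id1, 0.06 for Id2 and 0.07 for Id3, and the KO minus WT difference did not pass for any of them.

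Carbonic anhydrases, which interconvert carbon dioxide and bicarbonate, were called higher in 4 of 12 genes, a share of 33.3% beside 2.26% of all genes called higher. Car5a, the mitochondrial form, ran from 627 to 1263 in lean and from 1251 to 1843 in obese mice, a log2 change of 0.68 (SE 0.13, limma adjusted p = 0.0091). Car14 (0.60, SE 0.11) is a membrane form, and Car7 (0.97) and Car9 (1.84) rest on few reads. Of 265 solute carriers 18 were called (6.79%, beside 3.8% of all genes), 13 higher and 5 lower. Slc16a1, which encodes the monocarboxylate transporter MCT1, ran from 1848 to 5061 in lean and from 1041 to 1621 in obese mice (-1.04, SE 0.20), and the mitochondrial carrier Slc25a30 changed by -1.50 (SE 0.37). Among the rises were Slc38a11 (1.91, SE 0.48), the organic anion transporter Slc22a29 (1.94, SE 0.29) and the nucleoside transporter Slc28a1 (1.66, SE 0.51). Of 510 long noncoding RNA genes tested 26 were called higher and 6 lower, against 290 and 207 of 13199 protein-coding genes.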
